A study of Arabidopsis thaliana with 72 samples.

Results

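The genes described here are the 43 nuclear genes of Arabidopsis thaliana that encode the light-harvesting antenna proteins and the nuclear-encoded subunits of the photosystems. They were chosen by role, from a list of loci whose rule uses no measured value but which was drawn up with earlier results of these data known, out of 37336 genes in the count table. They fall into 6 groups by role: 6 LHCA antenna genes of photosystem I, 9 genes for the antenna trimers of photosystem II (LHCB1 to LHCB3), 5 for its monomeric antennae (LHCB4 to LHCB6), 12 photosystem I subunits (PSA), 5 extrinsic subunits of the oxygen-evolving complex and 6 other photosystem II subunits (PSB). RNA from rosette leaves was sequenced 25 days after sowing in 24 groups of 3 libraries. The groups were the accessions Ws, Ler and Col, the reciprocal F1 hybrids WsxLer, LerxWs, ColxLer and LerxCol, and F7 lines bred from the hybrids. The F7 lines of Ws/Ler were the Hybrid Mimics WL_HM1 to WL_HM7 and the small lines wl_sml1 and wl_sml2. Those of Col/Ler were the Hybrid Mimics CL_HM1 to CL_HM6 and the small lines cl_sml1 and cl_sml2.

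Hybrid Mimics are selfed lines that were kept over generations for an F1-like large rosette, and the small lines were kept for small size. For both, flowering had to start within the range of the parents. The study reports that small selections came to flower near the early parent or before it, and large ones near the late parent. Plants grew in long days, first on plates and then in soil, and the labels name no treatment. A parent or F1 library pooled the leaves of 3 plants, whereas an F7-line library came from 1 plant of that line, so 3 libraries of a line measure the spread between its plants and not between lines. The mid-parent value (MPV) against which F1 hybrids and lines were set was computed by adding the scaled counts of both parents, and the Ler libraries therefore entered both systems.

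Antenna proteins bind chlorophyll a and b and pass excitation to the reaction centres. LHCB1, LHCB2 and LHCB3 form the mobile and bound trimers of photosystem II, LHCB4 (CP29), LHCB5 (CP26) and LHCB6 (CP24) sit as monomers between the trimers and the core, and the LHCA proteins form a belt on one side of photosystem I. The core subunits that carry most cofactors are made in the chloroplast, whereas the genes described here are transcribed in the nucleus and their proteins are imported. Transcription of these genes is known to follow light, the circadian clock and the state of the chloroplast, and the GOLDEN2-LIKE factors GLK1 and GLK2 activate many of them.

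The LHCB1 family holds 3 genes side by side on chromosome 1 of TAIR10, namely LHCB1.2 (AT1G29910, 10472280 to 10473502, minus strand), LHCB1.1 (AT1G29920, 10474656 to 10475969, minus strand) and LHCB1.3 (AT1G29930, 10477885 to 10479114, plus strand). LHCB1.4 (AT2G34430, 14524607 to 14525918, plus strand) and LHCB1.5 (AT2G34420, 14522524 to 14523568, minus strand) are neighbours on chromosome 2. LHCB2.2 (AT2G05070, 1799234 to 1800472, minus strand) and LHCB2.1 (AT2G05100, 1822990 to 1824480, minus strand) lie near each other on chromosome 2, and LHCB2.3 (AT3G27690, 10255906 to 10257489, plus strand) lies on chromosome 3.

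The 250 bases upstream of the annotated transcript start are printed for 4 genes that moved very unequally between the line classes: LHCB1.1 and LHCB2.3, which moved most in Ws/Ler, LHCB1.3, the neighbour of LHCB1.1 that moved much less, and PSAE2, a stromal photosystem I subunit that moved least. The windows were read from the TAIR10.1 nuclear genome as chr1:10475970-10476219 (minus strand) for LHCB1.1, chr1:10477635-10477884 (plus) for LHCB1.3, chr3:10255656-10255905 (plus) for LHCB2.3 and chr2:8736484-8736733 (plus) for PSAE2. Capitals mark matches to the CCA1-binding site AAAAATCT, the G-box CACGTG and the CCAATC element.
LHCB1.1: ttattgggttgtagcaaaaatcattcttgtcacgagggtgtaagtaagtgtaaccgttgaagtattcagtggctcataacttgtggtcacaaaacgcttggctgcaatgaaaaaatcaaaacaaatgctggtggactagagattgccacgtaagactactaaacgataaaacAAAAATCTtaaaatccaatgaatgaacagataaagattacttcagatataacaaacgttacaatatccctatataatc
LHCB1.3: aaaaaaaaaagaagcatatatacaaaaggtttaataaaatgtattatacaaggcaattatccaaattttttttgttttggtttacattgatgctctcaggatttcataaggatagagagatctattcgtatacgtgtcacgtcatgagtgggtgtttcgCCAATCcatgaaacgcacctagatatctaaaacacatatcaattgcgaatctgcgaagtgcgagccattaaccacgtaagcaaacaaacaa
LHCB2.3: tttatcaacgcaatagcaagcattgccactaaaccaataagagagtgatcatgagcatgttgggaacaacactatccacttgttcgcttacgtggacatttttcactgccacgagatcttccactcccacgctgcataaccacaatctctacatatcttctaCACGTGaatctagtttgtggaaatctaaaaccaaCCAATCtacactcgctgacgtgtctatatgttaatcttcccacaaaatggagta
PSAE2: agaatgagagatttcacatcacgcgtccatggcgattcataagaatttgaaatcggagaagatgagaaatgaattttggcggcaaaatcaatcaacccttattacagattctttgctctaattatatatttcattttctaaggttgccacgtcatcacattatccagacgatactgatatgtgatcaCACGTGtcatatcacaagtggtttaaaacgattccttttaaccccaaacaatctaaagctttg

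Each of the 4 windows differs in what it holds. The window of LHCB1.1 has a CCA1-binding site at -78 to -71 from the start, that of LHCB1.3 a CCAATC element at -91 to -86, that of LHCB2.3 a G-box at -88 to -83 and a CCAATC element at -54 to -49, and that of PSAE2 a G-box at -63 to -58. Searched on both strands in the same window of 27437 genes, AAAAATCT was present in 6.7% of all genes and in 5 of the 43 described here (11.6%: LHCA4, LHCB1.1, LHCB1.4, PSAN and PSAO). CACGTG was present in 6.5% of all genes and in 9 of the 43 (20.9%), CCAATC in 10.2% and in 11 (25.6%), and the I-box GATAAG in 12.3% and in 9 (20.9%). The evening element AAAATATCT was found in 2.4% of all genes and only upstream of LHCA5 among the 43 (2.3%). A match describes letters in the reference genome and no factor binding was measured, and the Ws and Ler alleles were not read.

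The 72 libraries held 17741358 to 28527725 gene counts, with a median of 20432113, so that these genes were counted deeply in every library. LHCB1.5 had 0 counts in all 72 libraries, which is no measure of its transcription. Its exons lie wholly within those of other annotated genes. The antisense genes AT2G08665 and AT2G34410 overlap it, and the count of AT2G08665 was also 0. Of 368 protein-coding genes whose exons lie wholly in other genes' exons, 367 (99.7%) were at 0, compared with 2654 of 27444 protein-coding genes (9.7%) overall. The gene counting used leaves out reads that fall in more than 1 gene, and whether it used strand is not given in the sources used here. In the other members with such overlaps part of the reads may be missing as well, most of all in PSAG (61.4% of exon bases overlapped), PSAH1 (53.3%) and LHCB2.3 (40.6%). Stretches of a read's length of 150 bases shared with another member were found only for LHCB2.1 (3 of 1257 windows) and LHCB2.2 (3 of 994), in the Col reference. All of the other 42 genes passed the minimum of 50 counts in at least 1 library and were tested, and each of them had at least 50 counts in every library.

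In the 60 libraries other than those of the small lines, the 43 genes took 14.6 to 21.6% of all gene counts, with a median of 18.2%. In the small lines they took 11.0, 10.5 and 10.2% (wl_sml1), 7.31, 8.64 and 7.1% (wl_sml2), 11.8, 10.8 and 11.3% (cl_sml1) and 11.6, 11.7 and 12% (cl_sml2). All 12 small-line libraries were below all 60 others, while parents, F1 hybrids and Hybrid Mimics overlapped. The Ler libraries spread most among the parents, at 15.6, 17.5 and 21.6%.

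**Figure D1:**
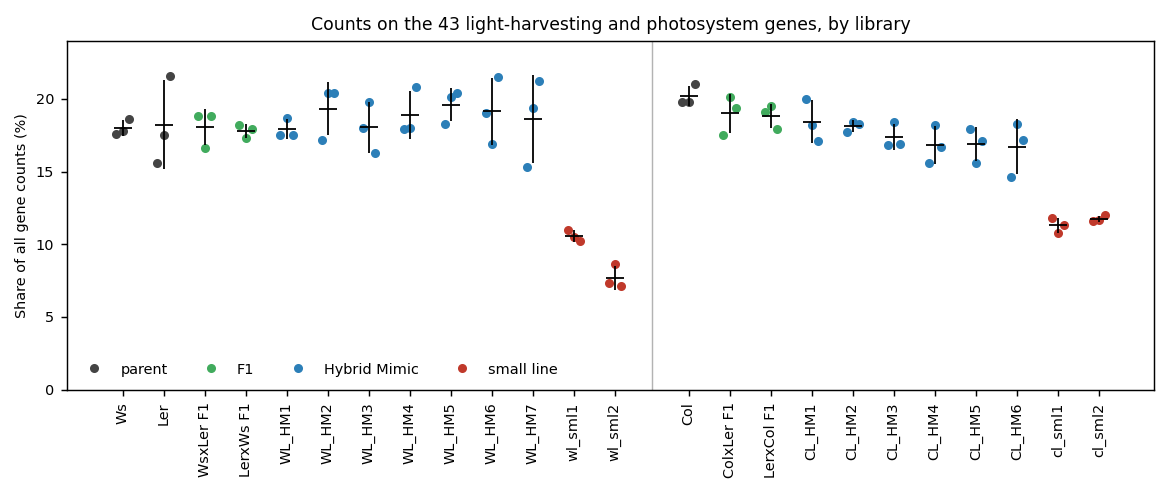
Share of all gene counts (%, vertical axis) taken by the 43 genes in each library, with 1 point per library, the mean as a horizontal bar and the SD (n = 3) as a vertical line. The small lines (red) lie between 7.1 and 12%, below the 14.6 to 21.6% of the parents (dark grey), F1 hybrids (green) and Hybrid Mimics (blue).

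Levels per kilobase of exon (RPKM) were computed with the unscaled library totals. LHCB1.3 had the highest level of the members in the 60 libraries other than small lines, with a median of 23447 RPKM. LHCB1.2 followed at 9051 and LHCA4 at 7508 RPKM. LHCB1.3 also ranked first in the small lines of both systems, at a median of 17092 RPKM in Ws/Ler and 18821 RPKM in Col/Ler. LHCB1.1 stood at rank 8 in the other libraries with 5961 RPKM, at rank 9 in the Col/Ler small lines with 2988 RPKM, and at rank 36 in the Ws/Ler small lines with 224 RPKM. The lowest medians in the 60 libraries were those of LHCB4.3 (104 RPKM), LHCA6 (122 RPKM), LHCA5 (132 RPKM) and PSAG (153 RPKM). The value of PSAG may be too low, since 61.4% of its exon bases overlap another gene and reads there may be missing.

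Within the LHCB1 family, the share of each gene differed between the classes of lines. Of all counts on LHCB1 genes, LHCB1.1 took 10 to 16.3% in the Ws/Ler Hybrid Mimics and 0.866 to 1.54% in the Ws/Ler small lines, and LHCB1.2 took 19.4 to 25.3% and 7.59 to 11.0%. LHCB1.3 took 50.7 to 57.6% in the Hybrid Mimics and 79.6 to 84.8% in the small lines of that system. In the Col/Ler small lines LHCB1.1 still held 8.79 to 14.1% and LHCB1.3 64.2 to 70.7%.

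Between accessions, few of these genes were called, and the count depended on the tool and on single libraries. Among the 42 tested, edgeR called 1 gene between Ws and Ler, beside 20.7% of all genes tested at an adjusted p at or under 0.05, 1 gene between Col and Ler (14.4% of all genes) and 1 between Ws and Col (24.1%). DESeq2 called 6, 1 and 7 members, and the shares of all genes that it called are not given here. Leaving out 1 library gave 3 calls for Ws against Ler without Ler replicate 1, 5 for Col against Ler without Ler replicate 3 and 3 for Ws against Col without Ws replicate 3. The members' median log2 fold changes were -0.12, 0.08 and -0.19, and those of all genes tested -0.01, -0.02 and 0.01. Levels are given as CPM, the counts of a gene brought to a common library size after TMM scaling. LHCB4.3, a variant CP29 isoform that is known to respond to strong light, was measured at 74.7, 84.5 and 125 CPM in Ws, at 145, 190 and 186 CPM in Ler and at 123, 127 and 161 CPM in Col. Each Ws library was below each Ler library, and Col overlapped both. The log2 fold change of LHCB4.3 in Ws against Ler was -0.88 ± 0.20 (SE; edgeR adjusted p = 0.0151), a call that was lost without Ler replicate 2 or Ws replicate 2.

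LHCB2.1, which encodes a trimer protein of the kind that is phosphorylated in state transitions, was the member with the largest difference between accessions. It was measured at 6748, 6619 and 7447 CPM in Col, at 2298, 2669 and 3453 CPM in Ler and at 2358, 1689 and 1698 CPM in Ws. Col was above the other accessions in every library. The log2 fold change of LHCB2.1 was 1.3 ± 0.19 in Col against Ler (edgeR adjusted p = 0.00152) and -1.86 ± 0.19 in Ws against Col (adjusted p = 0.000166). Its paralog LHCB2.2 was not called, with 5439, 5263 and 6252 CPM in Col and 4885, 6107 and 8075 CPM in Ler, which overlap.

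None of the 42 genes was called in the F1 hybrids against the MPV, where 0.281% of all genes were called in Ws/Ler and 0.407% in Col/Ler. The log2 fold changes of the members ran from -0.29 to 0.14 in the Ws/Ler F1 (median -0.03, beside 0.01 over all genes) and from -0.16 to 0.07 in the Col/Ler F1 (median -0.05, beside 0 over all genes). No member reached an unadjusted p under 0.05 in either F1, and DESeq2 called 0 as well. Between the reciprocal hybrids no member was called in either system, beside 0% of all genes, and the members' median log2 fold change was 0.07 for WsxLer against LerxWs and 0.05 for ColxLer against LerxCol. LHCB2.1 in the Col/Ler F1 lay between its parents in every library, at 3662, 4849 and 4909 CPM in ColxLer and 4205, 4517 and 3926 CPM in LerxCol.

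The small lines showed by far the largest changes. In wl_sml1, 34 of the 42 genes were called lower than the MPV (17.7% of all genes), with a median log2 fold change of -0.83. In wl_sml2 39 were called lower (21.7% of all genes), with a median of -1.24. In cl_sml1 and cl_sml2 all 42 genes fell (27.8% and 26.8% of all genes), with medians of -1.02 and -0.93. No member was called higher in any small line, and in wl_sml1 2 members had log2 fold changes above 0, of at most 0.085. The medians over all genes tested were between -0.01 and 0 in these 4 comparisons. Scaled by library totals instead of TMM, the members' medians were -0.69, -1.04, -0.76 and -0.67, while the all-gene medians moved up by 0.14, 0.20, 0.25 and 0.26. In these bulk leaf samples fewer cells of a type and less RNA per cell cannot be told apart, and the comparisons of a system share their MPV libraries.

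Against each other, the 7 Ws/Ler Hybrid Mimics were higher than the 2 small lines in 40 of 42 genes (33.9% of all genes were called higher), with a median log2 fold change of 1.11, and the 4 Col/Ler Hybrid Mimics CL_HM1 to CL_HM4 were higher than their 2 small lines in 42 of 42 genes (35% of all genes), with a median of 0.84. The all-gene medians were -0.03 and -0.01. These p-values count the plants of the lines as replicates, and there were only 2 small lines in each system. By role, the medians in Ws/Ler were 2.98 for LHCB1 to LHCB3, 1.5 for LHCB4 to LHCB6, 1 for LHCA, 1.09 for PSA, 0.84 for the extrinsic PSB proteins and 0.94 for the other PSB genes. In Col/Ler they were 1.25, 0.80, 0.78, 0.76, 0.92 and 0.91 in the same order.

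**Figure D2:**
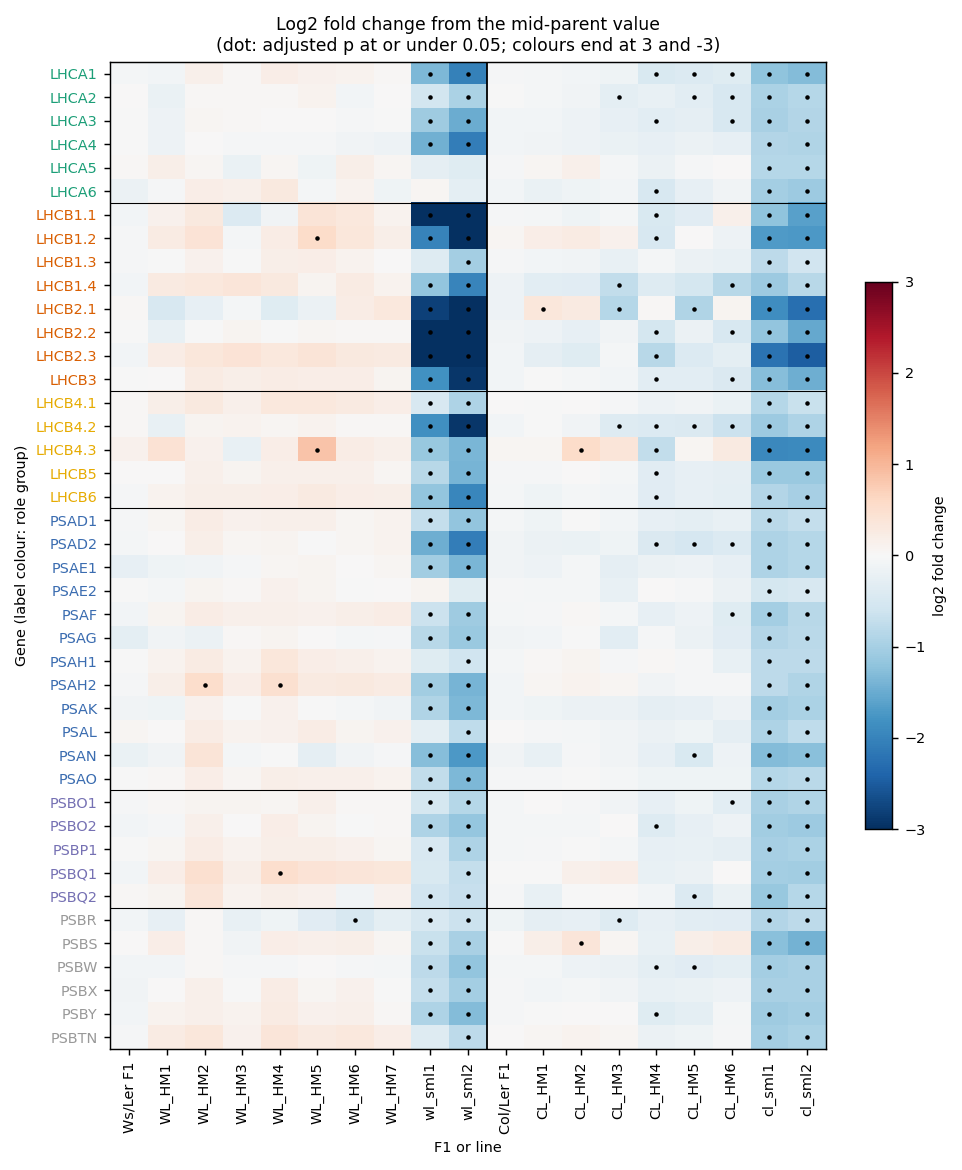
Log2 fold change from the mid-parent value of each of the 42 tested genes (rows, label colour by role group) in the F1 hybrids and F7 lines (columns), from blue (lower) to red (higher), with a dot where the edgeR adjusted p was at or under 0.05. The 4 small-line columns hold 34, 39, 42 and 42 dots, all lower, and the Hybrid Mimic columns hold between 0 and 16.

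The trimer genes of photosystem II carried the largest differences. LHCB1.1 was measured at 4919 to 12183 CPM in the 21 libraries of the Ws/Ler Hybrid Mimics, with a median of 7989. It was measured at 440, 322 and 296 CPM in wl_sml1 and at 143, 240 and 128 CPM in wl_sml2. The small lines were far below every other library of that system and wl_sml2 was below wl_sml1. In the Col/Ler small lines LHCB1.1 stood at 4205, 3576 and 3856 CPM (cl_sml1) and at 2673, 2845 and 3162 CPM (cl_sml2), below the 5765 to 9730 CPM of the 12 Hybrid Mimic libraries (median 8093). The log2 fold change of LHCB1.1 between Hybrid Mimics and small lines was 4.98 ± 0.19 in Ws/Ler (31.5-fold, edgeR adjusted p = 7.13e-19) and 1.25 ± 0.08 in Col/Ler (2.37-fold).

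LHCB2.3, a trimer gene with a low measured level, came next in Ws/Ler. Part of its reads may be missing, since 40.6% of its exon bases overlap another gene. Its libraries held 715 to 1524 CPM in the Hybrid Mimics (median 1154), 102, 61.4 and 65.7 CPM in wl_sml1 and 22.2, 36.2 and 16.9 CPM in wl_sml2. In Col/Ler they held 552 to 1185 CPM in the Hybrid Mimics (median 876), 287, 186 and 243 CPM in cl_sml1 and 195, 188 and 210 CPM in cl_sml2. The classes did not overlap in either system. The log2 fold change of LHCB2.3 was 4.73 ± 0.22 in Ws/Ler (26.6-fold, adjusted p = 4.49e-17) and 1.96 ± 0.11 in Col/Ler (3.89-fold, adjusted p = 7.99e-13).

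LHCB2.2 was measured at 4737 to 7343 CPM in the Ws/Ler Hybrid Mimics (median 5834), at 761, 593 and 535 CPM in wl_sml1 and at 245, 448 and 215 CPM in wl_sml2. Its log2 fold change between the classes was 3.75 ± 0.15 (13.5-fold, adjusted p = 4.1e-18). LHCB2.1 was the gene with the largest fold in Col/Ler, with 2531 to 6854 CPM in the Hybrid Mimics (median 5459), 1439, 1185 and 1385 CPM in cl_sml1 and 981, 1026 and 1048 CPM in cl_sml2. The small lines were thus below both parents, Ler included. The log2 fold change of LHCB2.1 was 2.01 ± 0.08 in Col/Ler (4.02-fold, adjusted p = 4.79e-16) and 3.18 ± 0.15 in Ws/Ler.

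The other trimer genes had smaller fold changes in Ws/Ler. LHCB1.2 was at 8349 to 17357 CPM in the Ws/Ler Hybrid Mimics and at 1173 to 3136 CPM in the small lines, a log2 fold change of 2.79 ± 0.13, and LHCB3, which encodes the protein found in bound trimers, was at 4521 to 8009 and 586 to 1899 CPM (2.52 ± 0.14). LHCB1.3, the most abundant member, was at 22776 to 38298 CPM in the Hybrid Mimics and at 12142 to 22739 CPM in the small lines, with a log2 fold change of 0.78 ± 0.10 (1.72-fold). The neighbouring genes LHCB1.1 and LHCB1.3 therefore differed in fold by a wide margin in Ws/Ler, whereas in Col/Ler their log2 fold changes were 1.25 ± 0.08 and 0.56 ± 0.06. LHCB1.4 was at 1.82 ± 0.17 in Ws/Ler, and in Col/Ler its Hybrid Mimic libraries (3388 to 5839 CPM) overlapped the small lines (2687 to 3590 CPM).

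**Figure D3:**
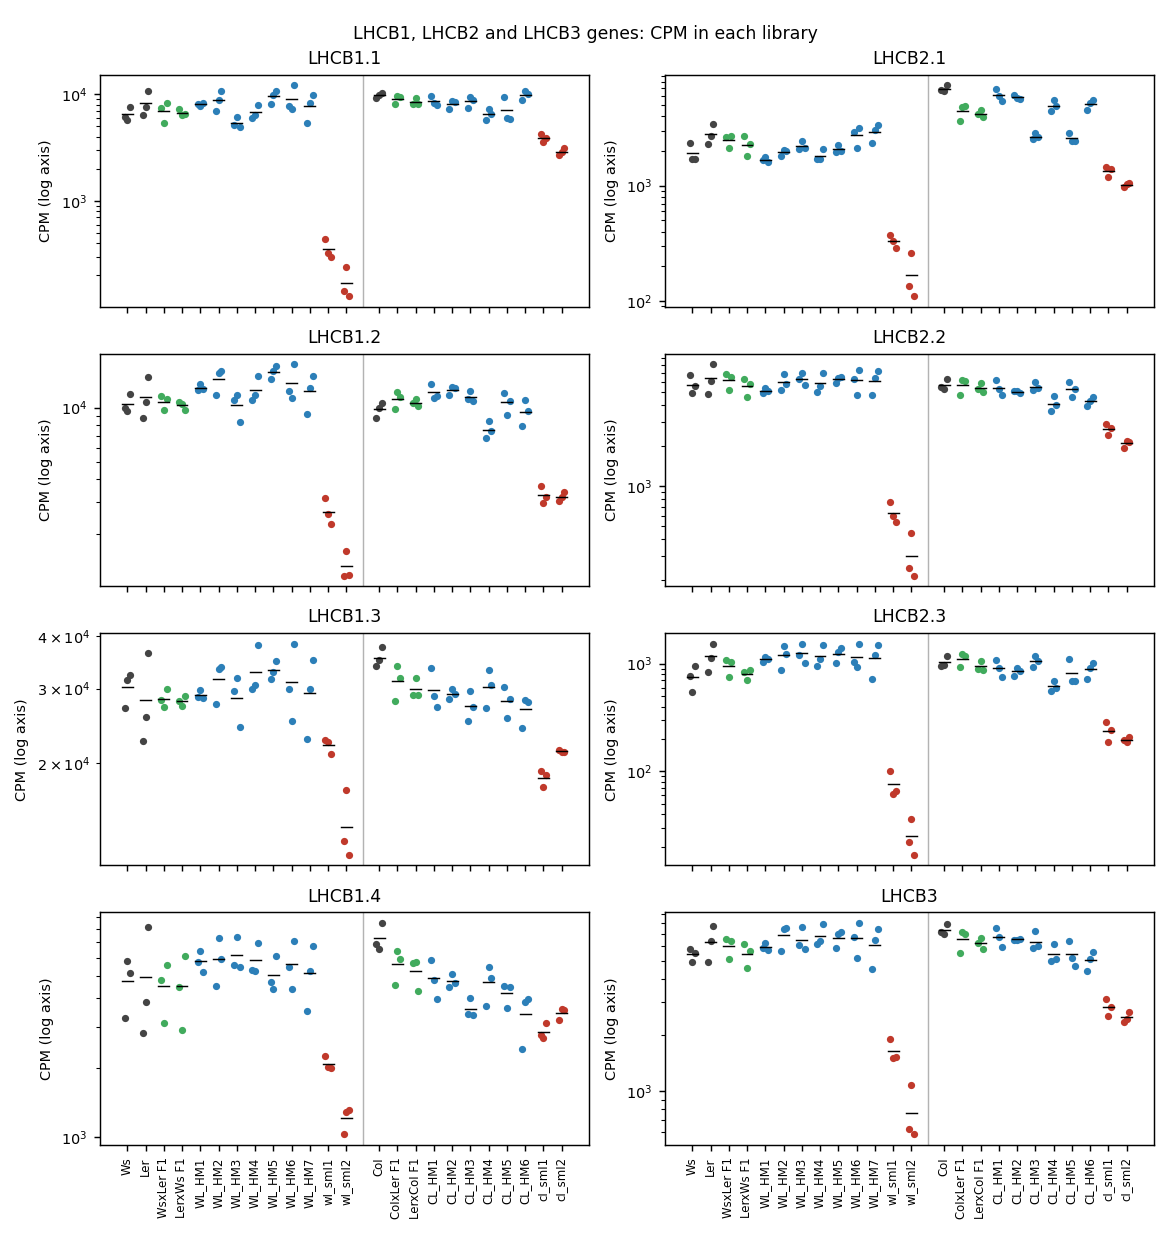
CPM of the 8 measured LHCB1, LHCB2 and LHCB3 genes in each library (vertical log axis, 1 point per library, black bar the mean of 3) for parents (dark grey), F1 hybrids (green), Hybrid Mimics (blue) and small lines (red), with Ws/Ler and the shared Ler on the left of the grey line. LHCB1.1 drops to 128 to 440 CPM in the Ws/Ler small lines and to 2673 to 4205 CPM in the Col/Ler small lines, and LHCB2.1 is highest in Col.

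Among the monomeric antennae, the 3 CP29 genes did not move alike. LHCB4.1, the main isoform, was at 7041 to 12228 CPM in the Ws/Ler Hybrid Mimics and at 3886 to 6134 CPM in the small lines (1.93-fold). LHCB4.2 was at 3000 to 5262 CPM in the Hybrid Mimics, at 1219, 1027 and 1205 CPM in wl_sml1 and at 506, 745 and 386 CPM in wl_sml2, a log2 fold change of 2.42 ± 0.14 (5.33-fold). In Col/Ler the order was different. LHCB4.3 had the largest fold there, with 85.6 to 263 CPM in the Hybrid Mimics, 43.6, 38.1 and 41.2 CPM in cl_sml1 and 41.7, 52.4 and 29.6 CPM in cl_sml2, a log2 fold change of 1.98 ± 0.11 (adjusted p = 2.03e-13). LHCB4.2 changed 1.73-fold and LHCB4.1 1.64-fold in that system. LHCB5 (CP26) changed 2.33-fold in Ws/Ler and 2.00-fold in Col/Ler, and LHCB6 (CP24) 3.38-fold and 1.74-fold.

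Among the photosystem I antennae, LHCA1 and LHCA4, which pair in the antenna belt, changed most in Ws/Ler. LHCA1 was at 6299 to 11285 CPM in the Hybrid Mimics and 1734 to 3402 CPM in the small lines (log2 fold change 1.76 ± 0.12), and LHCA4 at 7602 to 12235 and 2026 to 4111 CPM (1.69 ± 0.11). LHCA5 and LHCA6, minor proteins that join photosystem I to the chloroplast NADH dehydrogenase-like complex, were the LHCA genes with the smallest changes in that system. LHCA5 was at 104 to 196 CPM in the Hybrid Mimics and at 100 to 117 CPM in the small lines, and its call was lost with library totals (adjusted p = 0.0552). LHCA6 was at 91.9 to 202 CPM and 104 to 161 CPM, and was not called (0.19 ± 0.11, adjusted p = 0.132). In Col/Ler LHCA6 was at 93.6 to 174 CPM in the Hybrid Mimics and at 66.6 to 95.5 CPM in the small lines and was called.

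The photosystem I subunits spanned a wide range of changes. PSAD2, part of the ferredoxin docking site, was at 1242 to 2068 CPM in the Ws/Ler Hybrid Mimics and 306 to 562 CPM in the small lines (1.84 ± 0.11), while its paralog PSAD1 was at 2266 to 3607 and 1059 to 1692 CPM (1.07 ± 0.09). PSAE2 was the member with the smallest difference in both systems, while its paralog PSAE1 differed by 1.2 ± 0.12 in Ws/Ler. PSAE2 was at 505 to 867 CPM in the Ws/Ler Hybrid Mimics, 639, 657 and 782 CPM in wl_sml1 and 493, 567 and 464 CPM in wl_sml2, which overlap (0.18 ± 0.09, adjusted p = 0.073), and in Col/Ler its log2 fold change was 0.41 ± 0.07. PSAN, a lumenal subunit, was at 1708 to 4576 CPM and 653 to 1001 CPM in Ws/Ler (1.47 ± 0.14). Its highest value came from a single library, WL_HM2 replicate 3.

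The photosystem II subunits lay close together. PSBO1, the main manganese-stabilising protein, was at 4980 to 7537 CPM in the Ws/Ler Hybrid Mimics and 3126 to 4276 CPM in the small lines (0.77 ± 0.08), and at 5051 to 7097 and 3033 to 3539 CPM in Col/Ler (0.85 ± 0.07). PSBR, which helps to attach the extrinsic proteins, changed least among them, at 3323 to 7741 and 3743 to 4439 CPM in Ws/Ler, which overlap (0.32 ± 0.09, adjusted p = 0.00324, and not called with library totals, adjusted p = 0.15). PSBS, the sensor of lumen acidity in energy-dependent quenching, had the largest log2 fold change of the PSB genes in Col/Ler (1.44 ± 0.07), at 1215 to 2060 CPM in the Hybrid Mimics and 547 to 787 CPM in the small lines.

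Counted over libraries, every Hybrid Mimic library lay above every small-line library for 37 of the 42 genes in Ws/Ler and for 38 in Col/Ler. The exceptions were LHCA5, LHCA6, PSAE2, PSAG and PSBR in Ws/Ler and LHCA6, LHCB1.4, PSAE2 and PSAG in Col/Ler. Parents and F1 hybrids of the system were then added to the Hybrid Mimics, and in Col/Ler also CL_HM5 and CL_HM6. The small lines were still the lowest libraries for 32 and 36 genes. These separations were not counted over all genes, so their counts stand without a background. The test, which is another measure, called 33.9% of all genes higher in the Hybrid Mimics in Ws/Ler and 35% in Col/Ler.

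The difference between the systems was fitted over the 45 libraries of F7 lines, a comparison that was added after the data had been seen. The p-values of this fit count the plants of a line as replicates, with 2 small lines in each system, and so measure the spread within lines. The members' median difference was 0.25 on the log2 scale. Of the 42 genes 23 were called different between the systems in their change from small lines to Hybrid Mimics, beside 43.5% of all genes. For 19 of them the change was larger in Ws/Ler, led by LHCB1.1 (3.75 ± 0.19, edgeR adjusted p = 3.1e-17), LHCB2.3 (2.79 ± 0.22), LHCB2.2 (2.68 ± 0.16) and LHCB4.2 (1.64 ± 0.16). For 4 it was larger in Col/Ler, namely LHCA6 (-0.63), LHCA5 (-0.49), PSBS (-0.49) and LHCB4.3 (-0.45). The difference of LHCB1.3 was 0.24 and was not called (adjusted p = 0.107).

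**Figure D4:**
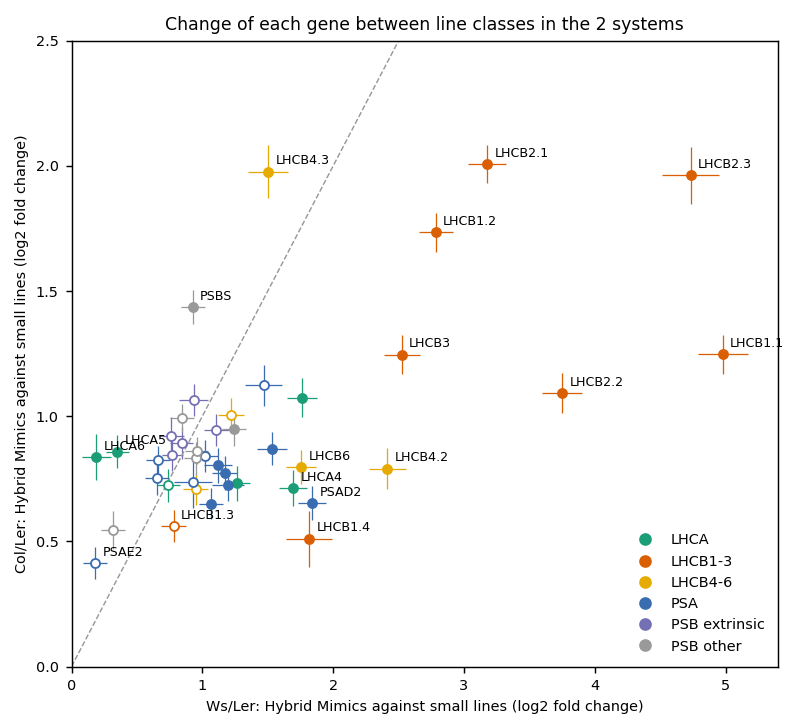
Log2 fold change of Hybrid Mimics against small lines in Ws/Ler (horizontal axis) and in Col/Ler (vertical axis) for each of the 42 tested genes, coloured by role group, with SE bars, and filled where the difference between the systems was called. LHCB1.1 and LHCB2.3 lie far to the right at 4.98 and 4.73, with 1.25 and 1.96 on the vertical axis, and the dashed line marks equal change.

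The Hybrid Mimics, set against the MPV one line at a time, changed little. In the 7 Ws/Ler lines 6 of 294 gene-by-line tests were called, with none in WL_HM1, WL_HM3 and WL_HM7, beside 22.4, 11.9 and 15.8% of all genes. The members' medians ran from 0.02 in WL_HM1 to 0.17 in WL_HM4. PSAH2, the subunit at which trimers dock on photosystem I, was called higher in WL_HM2 and WL_HM4, beside 23.4 and 34.4% of all genes called. Its libraries held 807, 996 and 1215 CPM in WL_HM2 and 843, 959 and 1134 CPM in WL_HM4, compared with 629, 540 and 679 CPM in Ws and 701, 810 and 879 CPM in Ler, so that both lines were above Ws and overlapped Ler. The log2 fold changes of PSAH2 were 0.52 ± 0.18 (adjusted p = 0.0362) and 0.48 ± 0.18 (adjusted p = 0.0386).

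The other called genes of this system were called in 1 line each. PSBQ1, an extrinsic protein of the oxygen-evolving complex, was at 2728, 2972 and 3854 CPM in WL_HM4, compared with 1825, 1771 and 2282 CPM in Ws and 2223, 2821 and 2745 CPM in Ler (0.50 ± 0.18, adjusted p = 0.0351). In WL_HM5 (17.6% of all genes called) LHCB1.2 was at 14322, 15896 and 17093 CPM, compared with 9925, 9517 and 11822 CPM in Ws and 8781, 10738 and 14695 CPM in Ler (0.54 ± 0.19, adjusted p = 0.0455). LHCB4.3 was at 238, 280 and 201 CPM in that line, above every parental library (0.85 ± 0.24, adjusted p = 0.0145). The lines overlapped Ler for PSBQ1 and LHCB1.2. PSBR was at 4539, 3323 and 5141 CPM in WL_HM6 (25.7% of all genes called), compared with 5811, 6723 and 6210 CPM in Ws and 4749, 5242 and 8125 CPM in Ler (-0.49 ± 0.16, adjusted p = 0.0269). None of the 6 calls was kept under every alternative tried, and without the MPV of replicate 1 or of replicate 2 only 1 call was left.

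In the Col/Ler system 24 of 168 tests on CL_HM1 to CL_HM4 were called, and 16 of them came from CL_HM4, in which 12% of all genes were called lower. The 24 calls became 6 when only the groups compared were fitted and 14 with no filter on low counts. The medians of the members were -0.06, -0.05, -0.09 and -0.25 in CL_HM1 to CL_HM4. Genes that fell in CL_HM4 included LHCB2.3 (552, 695 and 596 CPM, -0.83 ± 0.17, adjusted p = 0.00102), LHCB4.3 (97.8, 93.7 and 85.6 CPM, -0.75 ± 0.16, adjusted p = 0.00131) and LHCB2.2 (3651, 4682 and 4015 CPM, -0.54 ± 0.12). For LHCB2.3 and LHCB4.3 each CL_HM4 library was below each Col and each Ler library. The number of genes called in CL_HM4 was 6 without the MPV of replicate 3 and 23 without that of replicate 1.

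LHCB2.1 separated the Col/Ler lines from each other. It was measured at 6854, 6013 and 5441 CPM in CL_HM1, at 6111, 5744 and 5686 CPM in CL_HM2, at 4474, 5476 and 4903 CPM in CL_HM4 and at 4513, 5214 and 5480 CPM in CL_HM6. In CL_HM3 it was measured at 2531, 2840 and 2629 CPM and in CL_HM5 at 2882, 2454 and 2427 CPM. The libraries of CL_HM3 and CL_HM5 were within the range of Ler, and all those of the other 4 lines were above Ler. Against the MPV, LHCB2.1 fell by 0.85 ± 0.11 in CL_HM3 (adjusted p = 6.13e-06, 25.9% of all genes called) and by 0.91 ± 0.11 in CL_HM5 (adjusted p = 1.25e-06), and rose by 0.33 ± 0.11 in CL_HM1 (adjusted p = 0.0439, 14.6% of all genes called). The calls in CL_HM3 and CL_HM5 were kept under all 14 alternatives and that in CL_HM1 under 7 of them.

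In CL_HM2 (18% of all genes called) LHCB4.3 was at 263, 211 and 206 CPM, above every Col and Ler library (0.56 ± 0.15, adjusted p = 0.0138). PSBS was at 1949, 2022 and 2060 CPM in that line, above 1347, 1527 and 1658 CPM in Col and 1625, 1783 and 1481 CPM in Ler (0.37 ± 0.10, adjusted p = 0.016). The 5 genes called lower in CL_HM3 were LHCA2, LHCB1.4, LHCB2.1, LHCB4.2 and PSBR. LHCB4.2 was at 3691, 4224 and 3437 CPM in CL_HM3 and at 3167, 4411 and 3729 CPM in CL_HM4, compared with 5404, 5086 and 5950 CPM in Col and 3311, 4235 and 5986 CPM in Ler (-0.39 ± 0.13 and -0.40 ± 0.13). Both lines were below Col in every library and overlapped Ler.

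LHCB1.4 was an uncertain case, since its Ler libraries stood at 2816, 3862 and 8126 CPM. It was at 3408, 4028 and 3388 CPM in CL_HM3 (-0.75 ± 0.18, adjusted p = 0.00426), compared with 6884, 6564 and 8493 CPM in Col. Without the MPV of replicate 3, which holds the highest Ler library, that call was lost (adjusted p = 0.067).

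The study left CL_HM5 and CL_HM6 out of its comparisons because of plant size at sampling. In a fit with these lines added, 8 members were called lower in CL_HM5 (10.5% of all genes) and 10 in CL_HM6 (15.8% of all genes). None was called higher. These counts were unstable, with 2 in CL_HM5 without its replicate 2 or the MPV of replicate 3 and 16 without its replicate 1, and with 4 in CL_HM6 without the MPV of replicate 3 and 18 without that of replicate 1. The 18 calls of both lines became 2 when only the groups compared were fitted. LHCB4.2 was at 2865, 3294 and 3355 CPM in CL_HM6 (-0.64 ± 0.13, adjusted p = 0.000425), below all Col libraries, with overlap with Ler, and fell in CL_HM5 by 0.42 ± 0.13.

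As classes, the Hybrid Mimics and the F1 hybrids differed little in these genes. In Ws/Ler 7 of 42 were called higher in the Hybrid Mimics (19.9% of all genes called higher), with a member median of 0.13 on the log2 scale. They were PSBQ1 (0.42 ± 0.11, adjusted p = 0.0019), LHCB2.3 (0.41 ± 0.16), PSAH2 (0.34 ± 0.10), LHCB1.2 (0.30 ± 0.11), PSBTN (0.30 ± 0.09), PSAF (0.24 ± 0.09) and PSBY (0.22 ± 0.09). PSBQ1 was at 2025 to 3854 CPM in the Hybrid Mimics (median 2734) and at 1867 to 2486 CPM in the 6 F1 libraries (median 2145), which overlap. The number called was 3 without WsxLer replicate 2 and 12 without WL_HM7 replicate 1. In Col/Ler LHCB2.3 was called lower in the Hybrid Mimics (-0.29 ± 0.10, adjusted p = 0.0374, beside 13.8% of all genes called lower), and the call was lost without any of 9 single libraries.

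Genes with related roles were counted from lists in the same fits, in which 33.9% of all genes were called higher and 37.2% lower in the Hybrid Mimics than in the small lines of Ws/Ler, and 35% higher and 36% lower in Col/Ler. These shares are the background of each list count given here. Of the antenna regulators, GLK2 was at 255 to 402 CPM in the Ws/Ler Hybrid Mimics and at 56.4 to 94.1 CPM in the small lines (log2 fold change 2.05 ± 0.11), and at 176 to 317 and 162 to 224 CPM in Col/Ler (0.40 ± 0.08). GLK1 changed by 0.39 ± 0.09 in Ws/Ler and was not called in Col/Ler (-0.10 ± 0.09, adjusted p = 0.323). The part of these levels in the changes of the antenna genes was not tested.

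Chlorophyll synthesis genes changed with the antenna genes. In Ws/Ler 13 of 13 tested were higher in the Hybrid Mimics (median 1.17), among them CRD1 (2.29 ± 0.11), HEMA1 (2.23 ± 0.11), the entry enzyme of tetrapyrrole synthesis, and CAO, which makes chlorophyll b (2.14 ± 0.11). In Col/Ler 12 of 13 were higher (median 1.07), among them DVR (1.55 ± 0.11), CHLI2 (1.45 ± 0.09) and CHLH (1.39 ± 0.08). Of the 6 breakdown genes 5 were lower in the Hybrid Mimics in Ws/Ler (37.2% of all genes) and 4 in Col/Ler (36%), and 1 was higher in each. NYC1, the chlorophyll b reductase, was at 64.3 to 142 CPM and 336 to 439 CPM in Ws/Ler (-2.06 ± 0.15), and SGR2 was at 1.13 to 5.72 and 14.0 to 24.2 CPM (-2.70 ± 0.21). In Col/Ler the changes were -0.82 ± 0.09 and -1.68 ± 0.31.

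The insertion factors that hand antenna proteins to the thylakoid were higher in the Hybrid Mimics in 5 of 5 cases in each system, led by CPSRP43 in Ws/Ler (1.08 ± 0.09) and LTD in Col/Ler (1.07 ± 0.11). Of the 13 electron transport genes 9 were higher and 1 was lower in Ws/Ler (median 0.35), and 13 were higher in Col/Ler (median 0.77), medians that are below those of the antenna trimers in both systems. The extreme members differed too, with PETE1 (plastocyanin) at 1.24 ± 0.11 in Ws/Ler and 0.16 ± 0.06 in Col/Ler and FD2 (ferredoxin) at 0.27 ± 0.11 and 1.17 ± 0.08. Relatives of the antenna proteins were higher in 7 of 7 cases in Ws/Ler and in 5 of 6 in Col/Ler. The most changed in Ws/Ler was ELIP2, an early light-induced protein, at a very low level of 0.18 to 2.25 CPM and 0.08 to 0.44 CPM, and in Col/Ler it was LIL3.1 (0.91 ± 0.07). Of the 5 genes for antenna phosphorylation and quenching 2 were higher and 2 lower in Ws/Ler and 3 higher and 1 lower in Col/Ler, and in Ws/Ler these shares are near those of all genes. ZEP (zeaxanthin epoxidase) was higher in both (1.65 ± 0.11 and 0.87 ± 0.09), and TAP38, the phosphatase that acts on the trimers, was lower in both (-0.73 ± 0.07 and -0.24 ± 0.07).

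The clock genes named here differed between the classes as well, and a count over the clock list is not given. CCA1, a morning factor, was at 33.3 to 87.8 CPM in the Ws/Ler Hybrid Mimics and at 2.58 to 3.61 CPM in the small lines (4.08 ± 0.14), and at 46.0 to 81.6 and 12.2 to 41.6 CPM in Col/Ler (1.27 ± 0.14). LHY changed by 3.34 ± 0.18 and 1.59 ± 0.19, and PRR9 by 4.87 ± 0.15 and 1.05 ± 0.13. TOC1, an evening gene, went the other way, at 22.6 to 57.9 and 230 to 271 CPM in Ws/Ler (-2.89 ± 0.11) and at 19.9 to 54.9 and 81.2 to 168 CPM in Col/Ler (-1.81 ± 0.07). PRR7 changed by 0.92 ± 0.09 and -0.37 ± 0.07, and GI by -0.75 ± 0.09 and -0.92 ± 0.07. The labels give a harvest window of 6 to 8 h after lights on for the Ws/Ler set and do not restate it for Col/Ler, and the hour of each library is not given. The part of clock phase or harvest hour in the changes of the antenna genes was not tested.

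**Figure D5:**
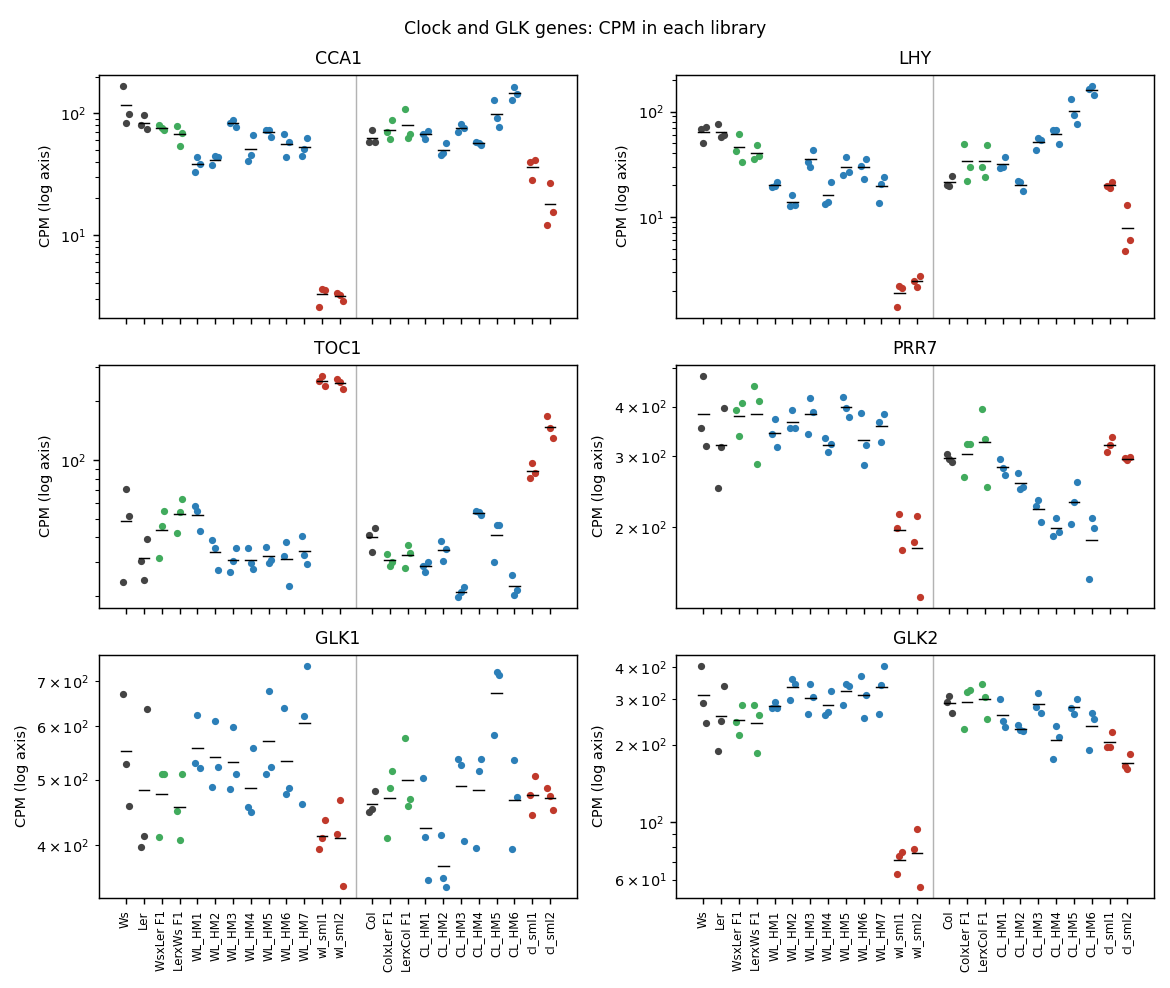
CPM of the clock genes CCA1, LHY, TOC1 and PRR7 and of the antenna regulators GLK1 and GLK2 in each library (vertical log axis, 1 point per library, black bar the mean of 3), coloured as in the plot of LHCB genes. CCA1 falls to 2.58 to 3.61 CPM and TOC1 climbs to 230 to 271 CPM in the Ws/Ler small lines, and GLK2 is at 56.4 to 94.1 CPM there.

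Markers of leaf cell types were counted in the same fits, with the same shares of all genes as background. The mesophyll list (RBCS1A, RBCS3B, RCA and CA1) was higher in the Hybrid Mimics in 3 of 4 genes in Ws/Ler, and in Col/Ler all 4 were higher. Its summed level was 26316 to 55390 CPM in the Hybrid Mimics and 16280 to 20554 CPM in the small lines of Ws/Ler, and 25703 to 50711 and 12111 to 16094 CPM in Col/Ler. The companion cell marker SUC2 was lower in the Hybrid Mimics, at 165 to 364 and 481 to 603 CPM in Ws/Ler (-1.12 ± 0.10) and 165 to 261 and 320 to 382 CPM in Col/Ler (-0.67 ± 0.10). The epidermal gene ATML1 was higher by 0.78 ± 0.12 and 1.04 ± 0.09. Of the guard cell list 1 gene was higher and 2 were lower in Ws/Ler and 2 of 3 were higher in Col/Ler. The senescence list was lower in the Hybrid Mimics in 3 of 3 tested genes in both systems, but its summed level overlapped between the classes. It was 18.1 to 1263 CPM in the Hybrid Mimics (median 36.9) and 65.8 to 229 CPM in the small lines (median 100) of Ws/Ler, and 21.1 to 286 CPM (median 43.6) and 140 to 546 CPM (median 390) in Col/Ler. The highest value of all libraries, 1263 CPM, was that of WL_HM3 replicate 3, and the 286 CPM came from CL_HM4 replicate 3. The defining gene SAG12 stood at 0 to 1.23 CPM over all libraries. Root and seed markers were near 0, with sums of at most 0.234 and 0.158 CPM, and the shoot apex and flower list summed to 0.989 to 23.5 CPM. The TMM factor moved with the classes too, from 0.8914 to 1.0727 in the libraries other than small lines to 1.0934 to 1.1639 in the Ws/Ler and 1.1312 to 1.1686 in the Col/Ler small lines. The part of cell makeup and of scaling in the changes of the antenna genes was not tested beyond the scaling values given above.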

How the data were processed

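Rosette leaf RNA of 72 libraries was sequenced by the authors as paired-end reads of 150 bases, aligned with STAR 2.5.3a to TAIR10 with the Araport11 annotation, and deposited as raw counts per gene for 37336 genes. Library totals were 17741358 to 28527725 (median 20432113), and the strand setting of the counting is not given in the sources used here. The deposited table held 0 columns of other samples. Columns were matched to samples by name, and groups were taken from the labels.

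Counts were tested with the quasi-likelihood test of edgeR 4.0.16 (R 4.3.3, limma 3.58.1) after TMM scaling, for each gene that reached 50 counts in any library fitted. A gene was called at a Benjamini-Hochberg adjusted p of at most 0.05 over all genes tested, and every adjusted p given comes from this test unless DESeq2 is named. The mid-parent value (MPV) was made by scaling the parental libraries of the same replicate number to equal size and adding them, so that Ler enters both MPVs. Parents, F1 crosses and each hybrid system were fitted separately, while a further Col/Ler fit included CL_HM5 and CL_HM6 and was used for these lines alone. Levels are CPM, counts divided by the TMM-scaled library total and brought to a common library size, and errors of fold changes are standard errors. The procedure was tested on simulated counts. Alternatives were library totals, TMM factors without the members, DESeq2 1.42.0, other count filters, an unadjusted p, a fit of only the groups compared, a log-scale MPV, a replicate block, and leaving out each replicate in turn. The comparison of the hybrid systems with each other was added after the data were seen, and it was not refitted with single libraries left out.

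The members and the pathway lists were chosen with earlier results of these data known. All 43 members could be named by role. Library values were given for the called members with the 3 largest rises and falls between parents, for any member called in an F1, for the 3 members per direction called most often over the Hybrid Mimics and over the small lines, and for the 3 largest differences per direction between Hybrid Mimics and small lines. Up to 3 genes per pathway list and system were named by size among those called. PRR7 and GI of the clock list and the senescence marker SAG12 were named outside this rule. Upstream windows of 250 bases were read by gene identifier from the TAIR10.1 sequence of RefSeq.

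Libraries of parents and F1 hybrids pooled 3 plants and those of F7 lines held 1 plant, so p-values measure the spread between such libraries.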

Additional observations from a re-analysis of the deposited data

Results flagged for a closer look

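The difference between Hybrid Mimics and small lines was not the same in both hybrid systems for 23 of the 42 members tested, by a contrast of the Ws/Ler and the Col/Ler log2 difference in 1 fit of the F7 lines (edgeR quasi-likelihood, adjusted p at most 0.05). Of 18145 genes tested, 43.5% were called in this contrast. The comparison was added after the data were seen. Its p-values count the plants of a line as replicates, with 2 small lines in each system, and so measure the spread within lines.

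The Ws/Ler difference exceeded the Col/Ler difference for 19 members. On the log2 scale the excess was 3.75 ± 0.19 for LHCB1.1, 2.79 ± 0.22 for LHCB2.3 and 2.68 ± 0.16 for LHCB2.2, all from the major trimeric antenna of photosystem II. The other trimer genes followed with 1.32 for LHCB1.4, 1.3 for LHCB3, 1.19 for LHCB2.1 and 1.07 for LHCB1.2. Among the minor antennae it was 1.64 ± 0.16 for LHCB4.2 and 0.98 for LHCB6. The photosystem I antenna genes LHCA4, LHCA1 and LHCA3 were at 1, 0.71 and 0.55. The photosystem I core subunits ranged from 1.21 for PSAD2 through 0.68 for PSAH2, 0.49 for PSAE1, 0.43 for PSAD1 and 0.42 for PSAO to 0.34 for PSAK, and the photosystem II subunit PSBY was at 0.32.

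The contrast had the opposite sign for 4 members, which are the genes with the larger Hybrid Mimic to small line difference in Col/Ler. These were LHCA6 with -0.63, LHCA5 with -0.49, PSBS with -0.49 and LHCB4.3 with -0.45. The first pair encodes antennae of low abundance that link photosystem I to the NDH complex, PSBS is the sensor of photoprotective quenching, and LHCB4.3 is a rare CP29 isoform. All 23 calls except that of PSAK (adjusted p = 0.0613 with no filter on low counts) were kept under the alternatives run for this contrast. Leaving out single libraries was not among them.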

How the results depend on the processing

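No call reversed its direction. Of the calls made, 69 of 73 in the Ws/Ler small lines, 84 of 84 in the Col/Ler small lines, and 38 of 40 and 42 of 42 between Hybrid Mimics and small lines were kept in every alternative. The exceptions of the Ws/Ler contrast were LHCA5 (adjusted p = 0.0552) and PSBR (0.15), both with library totals. The Hybrid Mimic calls against the mid-parent value were less stable, with 0 of 6 kept in Ws/Ler, 3 of 24 in Col/Ler and 2 of 18 in CL_HM5 and CL_HM6. These counts became 17, 44 and 38 with an unadjusted p, and 1, 14 and 11 with no filter on low counts. They became 6 and 2 in Col/Ler and in CL_HM5 and CL_HM6 with only the groups compared in the fit, and 10 in Ws/Ler with library totals. The shares of all genes called under the alternatives are not given here, so these counts stand without a background.

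Against the F1, the 7 calls in Ws/Ler became 13 with an unadjusted p, 3 with no filter and 12 with DESeq2. The 1 call in Col/Ler became 5 with an unadjusted p, 10 with library totals, and 2 with a minimum in every library, with only the groups compared and with DESeq2. Between parents, the 1 call of Ws against Ler became 6 with an unadjusted p, 3 with library totals and 6 with DESeq2. That of Ws against Col became 9, 2 and 7 with these, 3 with the replicate block and 7 with only the groups compared.

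Leaving out 1 library gave 0 to 3 calls for Ws against Ler, 1 to 5 for Col against Ler and 1 to 3 for Ws against Col. It gave 1 to 9 and 12 to 30 calls in the Hybrid Mimics of Ws/Ler and Col/Ler, 6 to 31 in CL_HM5 and CL_HM6, 70 to 76 and 84 in the small lines, 40 to 41 and 42 between Hybrid Mimics and small lines, and 3 to 12 and 0 to 4 against the F1. It gave 0 for the F1 and reciprocal comparisons.

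Same-numbered libraries did not deviate together (median r = 0.018 over 828 pairs, against -0.01 over 1656 pairs with different numbers), so the replicate numbers were not read as pairs. With the replicate block 3 of 321 calls were lost, a number that leaves out calls gained. At 3 libraries a group, a member that was not called is not shown to be unchanged.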
